A study of Mus musculus with 40 samples.

Results

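Translation factors and proteasome genes were followed in mouse oocytes with a conditional knockout of the histone methyltransferase G9a, or of both G9a and its partner GLP. The members were the RNA loci that overlapped, on the same strand, a gene whose symbol begins with Eif1 to Eif6, Eef1 or Eef2 (translation factors; the Eif2c symbols, older names of Argonaute genes, were left out) or with Psma to Psmg (proteasome). This gave 91 loci of 90 genes among 38540 loci in all: 52 loci of 51 translation genes, since Eef2k had 2 loci, and 39 loci of 39 proteasome genes. The 2 classes are described apart. Before the demands for overlap and strand, 128 loci of 93 genes bore a member's symbol. Genes of these families without a locus by this rule, such as Eif2s1, Psma5, Psmb8, Psmb10, Psmc2, Eif2s3y and Eef1a2, were not analysed here.

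All oocytes were at the germinal-vesicle stage, the stage of prophase arrest before meiotic maturation. They came from mice of 22 to 25 days, with 100 to 200 oocytes in a sample. RNA was sequenced from 3 controls whose titles begin with GKAO, 3 G9a cKO samples (a conditional knockout of G9a) of the same title series, 3 controls whose titles begin with GKAQ and 2 G9a-Glp cDKO samples (a conditional knockout of both genes) of that second series. H3K9me2, the histone mark that G9a and GLP place, was profiled in 2 control, 2 G9a cKO and 2 cDKO samples. The labels name neither the alleles nor what drives the recombination, and nothing in them says that replicates came from separate animals, so the p-values measure the spread between these samples, which may be technical. In RNA, each mutant was compared with the controls of its own title series, and the control series were compared with each other. For H3K9me2, both mutants were compared with the same 2 control samples.

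A growing oocyte stores messenger RNA and proteins that the early embryo uses before its own genome is active. Initiation factors bring the small ribosomal subunit to the cap of a messenger RNA and to its start codon: eIF4E binds the cap, eIF4G and eIF4A form with it the eIF4F complex, eIF3 bridges to the ribosome, and eIF2 brings the initiator tRNA. Elongation factors eEF1 and eEF2 then deliver aminoacyl-tRNA and move the ribosome. The 26S proteasome degrades ubiquitin-tagged proteins in a 20S core of stacked alpha and beta rings, capped by a 19S particle that unfolds the substrate with a ring of ATPases, and dedicated chaperones assemble both.

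Levels are given as RPM, read counts scaled to the total of the library, and changes as differences of log2 RPM. Libraries held 1458868 to 2399680 reads. A locus was called changed at an adjusted p under 0.05 in limma (a linear model fitted to all loci and all 11 libraries, with Benjamini-Hochberg adjustment over the 38540 loci), and detected where its mean over the libraries reached 10 RPM. Of the members, 47 of 52 translation loci and 32 of 39 proteasome loci were detected. RPM is not divided by transcript length, so levels are compared between samples and not between genes. In a fit without the trended, robust estimate of the spread, 0 translation loci and at most 1 proteasome locus were called in each comparison. In pooled oocytes, fewer cells with an RNA and less of it in each cell cannot be told apart.

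The targeted genes were checked first. Ehmt2, which encodes G9a, stood at 8.23, 6.81 and 5.27 RPM in GKAO controls and at 2.09, 6.01 and 0.942 in G9a cKO. It stood at 5.03, 12.5 and 7.89 RPM in GKAQ controls and at 2.85 and 2.96 in cDKO. With 2 to 30 reads in a library, limma called it in neither mutant. The log2 change was -1.55 in G9a cKO (adjusted p = 0.0971) and -1.45 in cDKO (adjusted p = 0.121). Replicate 2 of the libraries labelled G9a cKO had a level inside the range of the controls, and G9a cKO counts are also given without it. Ehmt1, which encodes GLP, fell in cDKO (17.7 and 21.3 RPM against 90.5, 68.3 and 85.3; log2 change -2.06, adjusted p = 1.09e-21). Of 15 oocyte markers 14 had a locus and all 14 were detected, with a summed 17626 to 21467 RPM. Of 15 granulosa cell markers 2 were detected, Nr5a2 and Cyp19a1. The list summed to 192 to 203 RPM in GKAO controls and to 132 to 176 RPM in the other groups. Nr5a2 was highest in the GKAO controls, while Cyp19a1 was not, and the defining marker Foxl2 had 0 to 4 reads in a library. Of 9 blood and immune markers with a locus none was detected, and Hba-a1, Hbb-b1 and Tyrobp had 0 reads throughout. Of the granulosa list, Inha and Fshr were called higher in cDKO (Inha with 12 and 17 reads, Fshr with 16 and 9). Inha had 2, 10 and 2 reads in GKAQ controls, where it was also called lower than in GKAO controls. Of the oocyte list 4 genes were called in G9a cKO and 8 in cDKO, where 5.22% and 15.8% of all detected loci were called. The part of these markers in the results was not tested.

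Every group of members by role had detected genes, except the inducible or tissue-restricted beta subunits, and other variant subunits were also near or at 0. Psmb9, the inducible beta subunit of the immunoproteasome, had 0 reads in all 11 libraries, which allows up to 3 reads in a library. Psma8, the alpha subunit of the testis-enriched spermatoproteasome, had 0 to 2 reads, and Psmb11, the beta subunit of the thymus, 1 to 7. The PA28 activator subunits Psme1 and Psme2, both inducible by interferon, had 0 to 11 and 5 to 11 reads, while the nuclear activators Psme3 (PA28 gamma) and Psme4 (PA200) were detected with means of 336 and 331 RPM. Among translation factors, the antiviral kinase gene Eif2ak2 (PKR) had 0 to 8 reads, Eif5a2 0 to 5 and the repressor gene Eif4ebp1 0 to 6. Psmb5, the constitutive chymotrypsin-like subunit, was itself low, with 11, 11 and 19 reads in GKAO controls, 15, 10 and 19 in G9a cKO, 8, 13 and 13 in GKAQ controls and 24 and 15 in cDKO. Neither mutant passed the threshold at Psmb5 (changes of -0.22 and 0.98, adjusted p = 0.733 and 0.259).

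Sequences upstream of 4 members are printed because those genes carry the changes described here: Eif4a1 had the lowest adjusted p of the class between control series, Eef1b2 was the translation factor with the largest called increase in cDKO, and Psmd12 and Psmc5 were the only proteasome genes called in a mutant. Each is the 250 bases before the start that RefSeq annotates, on GRCm38.p6, 5′ to 3′ on the strand of the gene. Capitals mark matches on either strand to 1 of 7 motifs: the E-box CACGTG, an ETS motif CCGGAAG, the antioxidant response element TGACNNNGC, the box CCAAT, the box of the TATA-binding protein TATAAA, the element of the oocyte factor NOBOX TAATTG and the cyclic AMP response element TGACGTCA.
Eif4a1 (chr11:69672424-69672673, minus strand): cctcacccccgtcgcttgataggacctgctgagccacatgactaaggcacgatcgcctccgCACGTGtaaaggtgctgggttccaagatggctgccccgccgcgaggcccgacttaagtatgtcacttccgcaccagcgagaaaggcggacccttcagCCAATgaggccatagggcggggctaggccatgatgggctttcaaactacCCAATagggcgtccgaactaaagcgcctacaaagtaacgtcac
Eef1b2 (chr1:63176581-63176830, plus strand): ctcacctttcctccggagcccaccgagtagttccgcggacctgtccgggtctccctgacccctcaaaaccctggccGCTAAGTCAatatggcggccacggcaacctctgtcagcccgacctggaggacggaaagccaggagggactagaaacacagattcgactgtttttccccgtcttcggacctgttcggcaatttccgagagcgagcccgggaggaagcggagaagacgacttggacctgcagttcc
Psmd12 (chr11:107479278-107479527, plus strand): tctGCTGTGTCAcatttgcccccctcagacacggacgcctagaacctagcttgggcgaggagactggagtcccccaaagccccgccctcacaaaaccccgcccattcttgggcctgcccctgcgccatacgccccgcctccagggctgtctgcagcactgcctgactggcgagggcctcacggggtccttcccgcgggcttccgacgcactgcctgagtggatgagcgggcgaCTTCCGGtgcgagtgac
Psmc5 (chr11:106255935-106256184, plus strand): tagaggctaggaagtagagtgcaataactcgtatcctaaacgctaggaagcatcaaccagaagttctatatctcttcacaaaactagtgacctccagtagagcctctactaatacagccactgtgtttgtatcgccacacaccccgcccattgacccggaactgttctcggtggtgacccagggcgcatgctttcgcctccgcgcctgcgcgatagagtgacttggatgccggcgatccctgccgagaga
The Eif4a1 window holds 1 E-box and 2 CCAAT boxes, the Eef1b2 window 1 antioxidant response element, the Psmd12 window that element and an ETS motif, and the Psmc5 window no match. Over all members, 72 of 90 genes had an entry, giving 51 windows for translation factors and 35 for proteasome genes, against 32851 windows for all genes. The E-box was in 25.5% of translation-factor windows, 5.71% of proteasome windows and 6.02% of all windows. The ETS motif was in 19.6%, 31.4% and 6.91%, and the antioxidant response element in 17.6%, 14.3% and 10.2%. The CCAAT box was in 27.5%, 34.3% and 33.8%, and the TATA box in 5.88%, 8.57% and 12.4%. The NOBOX element was in 5.88%, 0% and 7.17%, and the cyclic AMP response element in 0%, 0% and 1.55%. Median GC content was 60.4%, 57.6% and 52.4%, so the windows also differ in base composition. These shares describe letters in the genome, and some genes have more than 1 window.

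In G9a cKO, RNA of the initiation genes Eif3a and Eif4g2 was higher, and RNA of Eef1e1, of the kinase gene Eif2ak1 and of the oocyte cap-binding gene Eif4e1b was lower. These were 5 of 52 translation loci called, 2 higher and 3 lower, where 1.79% of all loci (1.05% higher and 0.737% lower) and 5.22% of detected loci were called. The median change of the 47 detected loci was 0.01, against 0.01 over all 9091 detected loci. Intervals of the members were narrower than those of other detected loci (to either side a median of 0.23 against 0.39), so the shares called are not read as particular to the class. For 36 of the 47 detected members the 95% interval of the change lay within 1.5-fold in either direction. The count was 1 without the library labelled G9a cKO replicate 2, and 3 without G9a cKO replicate 3, GKAO control replicate 1 or GKAO control replicate 2.

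Among eIF3 genes, 1 of 12 was called. Eif3a, the largest subunit of the eIF3 scaffold (locus TCONS_00055473, ENSMUSG00000024991, chr19:60761116-60791034, minus strand), had 229, 227 and 213 RPM in GKAO controls and 308, 315 and 312 in G9a cKO. It rose by a log2 change of 0.48, SE 0.10, adjusted p = 0.000111. The groups did not overlap, but the G9a cKO levels were also close to those of GKAQ controls (295, 266 and 295) and cDKO (315 and 311), and against all 6 controls pooled the gene was not called (log2 change 0.31, adjusted p = 0.0678). Eif3a was the only translation locus still called without the library labelled G9a cKO replicate 2 (log2 change 0.48, adjusted p = 0.003).

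The eIF4 family had 2 of 11 called, in opposite directions. Eif4g2 encodes DAP5, an eIF4G relative that does not bind eIF4E (locus TCONS_00095132, ENSMUSG00000005610, chr7:111069013-111122824, minus strand). It had 499, 489.7 and 463 RPM in GKAO controls and 579, 563 and 581 in G9a cKO, a rise of 0.25, SE 0.07, adjusted p = 0.0417. Every mutant library was above every GKAO control, but within the GKAQ control range (504, 589 and 539.7). This call was lost in 16 of 20 alternative settings, among them leaving out any 1 of the G9a cKO or GKAO control libraries, with adjusted p up to 0.393. Eif4e1b, an eIF4E relative made mainly in oocytes (locus TCONS_00027144, ENSMUSG00000074895, chr13:54783169-54788459, plus strand), had 736, 748 and 611 RPM in GKAO controls and 620.4, 594 and 555 in G9a cKO. It was lower, with a log2 change of -0.24, SE 0.07, adjusted p = 0.0247. GKAO control replicate 3 and G9a cKO replicate 1 overlapped, and the call was lost in 10 of 20 alternative settings, among them leaving out G9a cKO replicate 2 or 3 or GKAO control replicate 1 or 2. Eif4e, the general cap-binding protein, had 169, 175 and 196 RPM against 164, 186 and 207, with a change of 0.04, SE 0.12, adjusted p = 0.848 and an interval of -0.19 to 0.26.

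The eIF2 arm is reported with its kinases, which phosphorylate eIF2 alpha under stress. None of 6 loci of eIF2 and its exchange factor eIF2B was called. Eif2s3x, the X-linked gamma subunit, had 34.3, 28.8 and 22.9 RPM in GKAO controls and 17.5, 35.0 and 33.0 in G9a cKO, overlapping groups with a change of -0.05, SE 0.22, adjusted p = 0.894. Of 4 kinase genes 1 was called: Eif2ak1, the heme-regulated kinase HRI (locus TCONS_00079853, ENSMUSG00000029613, chr5:143817732-143904256, plus strand), had 439, 468 and 423 RPM in GKAO controls and 366, 339 and 349 in G9a cKO. It was lower, with a log2 change of -0.33, SE 0.08, adjusted p = 0.00753, and the groups did not overlap. It was not called against all 6 controls pooled (log2 change -0.24, adjusted p = 0.149), nor without G9a cKO replicate 2 or GKAO control replicate 2. In the other series Eif2ak1 had 384, 366 and 418 RPM in controls and 334 and 329 in cDKO, with a change of -0.23, SE 0.09, adjusted p = 0.14, which became called in 3 settings (centred, pooled controls, trimmed-mean scaling).

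Among elongation genes, 1 of 10 loci was called. Eef1e1, a small protein of the multi-tRNA synthetase complex related to eEF1 (locus TCONS_00029414, ENSMUSG00000001707, chr13:38645698-38659116, minus strand), had 23.3, 20.9 and 26.4 RPM in GKAO controls and 15.4, 7.65 and 9.42 in G9a cKO, from 34, 40 and 45 reads and 37, 14 and 20 reads. It was lower, with a log2 change of -1.18, SE 0.27, adjusted p = 0.00266, the largest called change in either mutant among the members. All G9a cKO libraries were below all GKAO controls, and the lowest mutant value was the library labelled replicate 2, without which the change was -0.96 with an adjusted p of 0.0903. Levels in cDKO, 16.5 and 25.5 RPM, were also below the GKAQ controls at 36.5, 31.3 and 29.6, but that change was not called (-0.65, SE 0.31, adjusted p = 0.241). Eef1a1, which carries aminoacyl-tRNA, had 281, 294 and 277 RPM against 246, 303 and 275, and Eef2, the translocase, 311, 296 and 280.1 against 258, 275 and 288. Their changes had intervals of -0.24 to 0.13 and -0.30 to 0.07, which exclude a change of 1.5-fold.

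**Figure D1:**
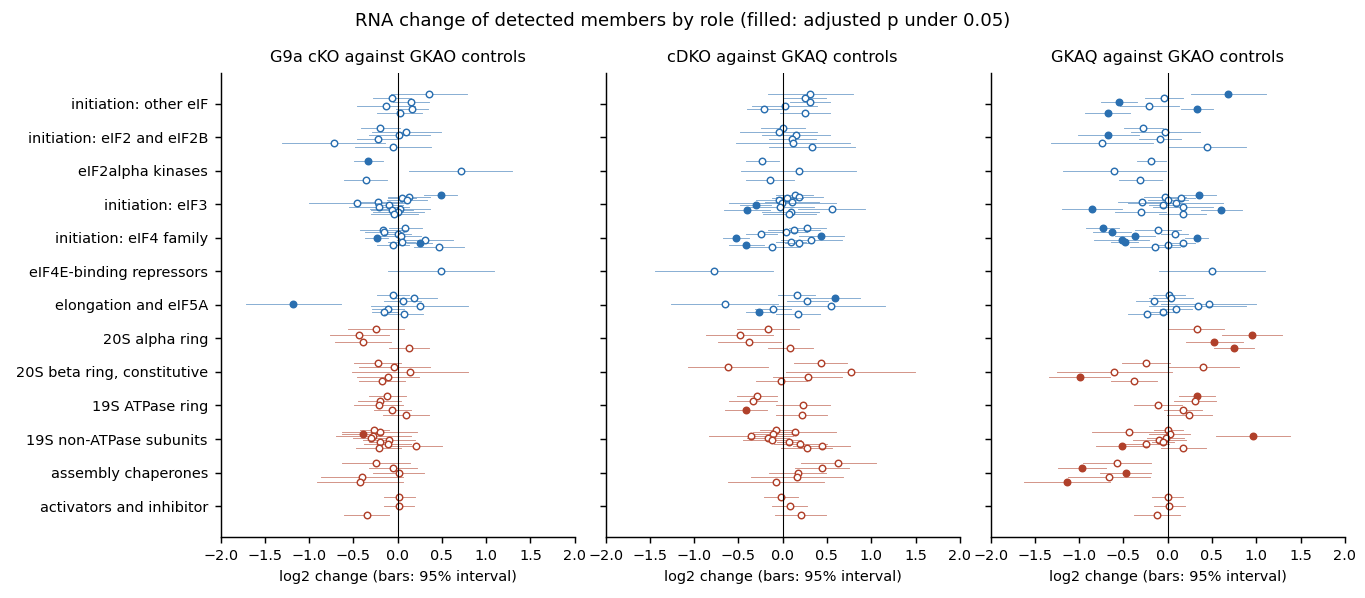
Log2 change of each detected member (x axis, bars are 95% intervals) by role (y axis; translation factors blue, proteasome genes red) in G9a cKO, in cDKO and between control series; filled points passed an adjusted p of 0.05. Filled points are more frequent between the control series (14 of 47 translation and 10 of 32 proteasome loci detected) than in either mutant panel. Of all detected loci, 14.8% were called between control series, 5.22% in G9a cKO and 15.8% in cDKO.

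In cDKO, RNA of Eef1b2 and Eif4e was higher, and RNA of Eif4e1b, Eif4g3, Eif3j, Eif3g and Eef2k was lower. These were 7 of 52 translation loci called, 2 higher and 5 lower, where 6.34% of all loci (4.32% higher and 2.02% lower) and 15.8% of detected loci were called. The count was 3 without cDKO replicate 1 or GKAQ control replicate 1. The median change of detected members was 0.09, and 0.05 over all detected loci. It was -0.0017 when libraries were centred on detected loci, so no common direction is read from it.

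The eIF4 family had 3 of 11 called. Eif4e1b had 874, 935 and 810.3 RPM in GKAQ controls and 574 and 640.2 in cDKO. It was lower, with a log2 change of -0.52, SE 0.07, adjusted p = 6.32e-10, the lowest adjusted p among members in either mutant. The groups did not overlap, and the gene stayed called in 19 of 20 alternative settings, among them against all 6 controls pooled (log2 change -0.36, adjusted p = 0.0011). The cDKO level itself was close to that of the G9a cKO (620.4, 594 and 555 RPM), and the GKAQ controls stood above the GKAO controls. Eif4g3, an eIF4G paralog (locus TCONS_00071863, ENSMUSG00000028760, chr4:137993456-138207079, plus strand), fell from 343, 323 and 329.8 RPM to 231 and 269, a log2 change of -0.41, SE 0.10, adjusted p = 0.00208, without overlap; it was not called without cDKO replicate 1. Eif4e moved the other way, from 133, 148 and 137 RPM to 198 and 179.6, a rise of 0.44, SE 0.13, adjusted p = 0.0165 without overlap. Of the cDKO libraries, replicate 2 lay within the range of the GKAO controls (169, 175 and 196 RPM) and replicate 1 just above it. The call was lost in 9 of 20 alternative settings, among them without cDKO replicate 1 or GKAQ control replicate 1 or 3, and against all 6 controls pooled it was not called (log2 change 0.25, adjusted p = 0.403).

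Of 12 eIF3 genes 2 were called, both lower. Eif3g, the RNA-binding subunit (locus TCONS_00105289, ENSMUSG00000070319, chr9:20894352-20898600, minus strand), had 473, 409.6 and 418 RPM in GKAQ controls and 396 and 310.0 in cDKO, a change of -0.31, SE 0.09, adjusted p = 0.0171. It was -0.13 (adjusted p = 0.804) without cDKO replicate 2, and the call was lost in 7 of 20 alternative settings, GKAQ control replicate 1 left out among them. Eif3j, the loosely bound subunit that helps place the 40S ribosome (locus TCONS_00057721, ENSMUSG00000027236, chr2:122028482-122056598, plus strand), had 239, 195 and 197 RPM against 139 and 180.2, a change of -0.41, SE 0.13, adjusted p = 0.0412. Both cDKO libraries were below all GKAQ controls for both genes. For Eif3j the cDKO levels were within or above the range of the GKAO controls (135, 123 and 157 RPM), and the change against pooled controls was -0.10 (adjusted p = 0.874). Its call was lost in 10 of 20 alternative settings, among them leaving out cDKO replicate 1 or any 1 GKAQ control.

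Among elongation genes 2 of 10 loci were called. Eef1b2, the exchange factor that recharges eEF1A (locus TCONS_00001256, ENSMUSG00000025967, chr1:63176825-63180486, plus strand), had 118, 117 and 124 RPM in GKAQ controls and 202 and 161 in cDKO, a rise of 0.59, SE 0.14, adjusted p = 0.00166. All 6 controls lay at 111 to 124 RPM, below both cDKO libraries, and the gene was not called without cDKO replicate 1. Eef2k, the kinase that inhibits eEF2 (locus TCONS_00091981, ENSMUSG00000035064, chr7:120843600-120907417, plus strand), had 601, 613 and 561 RPM against 539 and 451, a log2 change of -0.26, SE 0.08, adjusted p = 0.0229. Both cDKO libraries were below the GKAQ controls, replicate 1 by a small margin. Without cDKO replicate 2 the change was -0.13 (adjusted p = 0.737), and the call was lost in 6 of 20 alternative settings, GKAQ control replicate 1 or 2 left out among them. Eef1a1 (273, 288 and 298 against 316 and 323 RPM) and Eef2 (307, 327 and 314 against 307 and 279) were not called, with intervals of -0.05 to 0.36 and -0.31 to 0.10. None of the 6 eIF2 and eIF2B loci was called, Eif2s3x having 30.2, 38.3 and 49.3 RPM against 45.0 and 52.2 and a change of 0.33, SE 0.25, adjusted p = 0.565.

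**Figure D2:**
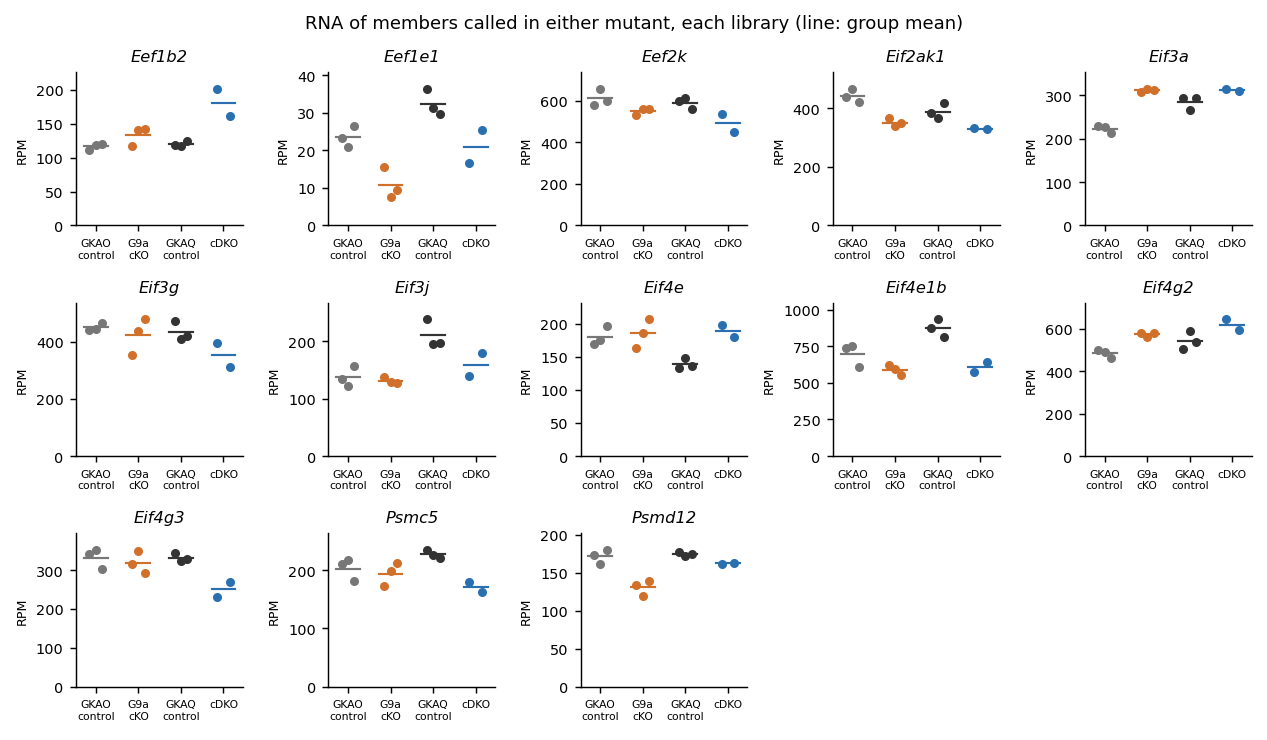
RNA level in RPM (y axis, from 0) of the 13 members called in either mutant, each point 1 library and each line a group mean. Eef1b2 stands apart in cDKO from all 6 controls, while for Eif3a, Eif3j, Eif4e and Eif4e1b the GKAQ controls differ from the GKAO controls.

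Eif4e1b was called lower in both mutants, though in G9a cKO in only 10 of 20 alternative settings. No member was called for the difference between the cDKO and G9a cKO effects (limma, 0 of 52 translation and 0 of 39 proteasome loci, 1.08% of all loci and 3.34% of detected loci called; unadjusted p under 0.05 at 11 and 8 loci). Without GKAQ control replicate 1, 5 loci of each class were called, and without cDKO replicate 2, 2 translation loci and 1 proteasome locus; the proteasome count was also 1 without G9a cKO replicate 3 or GKAO control replicate 1. So Eif3a, Eef1b2 and the other genes called in 1 mutant are not shown to respond differently in the other. For Eif4e1b the difference was -0.28, SE 0.10, adjusted p = 0.169. The interval of the difference lay within 1.5-fold for 22 of 47 detected translation loci and 14 of 32 detected proteasome loci, and reached beyond it for the rest. The largest difference of a detected translation locus was at Eif4ebp2, which encodes a repressor of eIF4E: 11.1 to 17.8 RPM in GKAO controls, 16.3, 23.5 and 17.4 in G9a cKO, 18.2, 18.8 and 19.7 in GKAQ controls and 11.4 and 10.7 in cDKO (-1.27, SE 0.46, adjusted p = 0.169).

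The control series differed from each other at more translation loci than either mutant differed from its controls: 14 of 52 were called, 5 higher and 9 lower in GKAQ, where 3.87% of all loci (1.96% higher and 1.91% lower) and 14.8% of detected loci were called. No test compared these counts, and the comparison has 6 libraries against 5 for cDKO. The eIF4 family accounted for 6 of the 14. Eif4a1, the main helicase of eIF4F (locus TCONS_00019226, ENSMUSG00000059796, chr11:69666935-69672519, minus strand), had 350.3, 334 and 318 RPM in GKAO controls and 195, 193 and 216 in GKAQ controls, a change of -0.73, SE 0.10, adjusted p = 5.25e-12. Eif4g1, the scaffold of eIF4F (locus TCONS_00041273, ENSMUSG00000045983, chr16:20668313-20693011, plus strand), had 546, 573 and 519 RPM against 376, 406 and 387, a change of -0.49, SE 0.08, adjusted p = 5.33e-08. In both genes the series did not overlap, and no cDKO library reached the GKAO range (Eif4a1 266 and 223 RPM in cDKO, above the GKAQ controls, and 339, 382 and 342 in G9a cKO). Eif4a3, the helicase of the exon junction complex, changed by -0.63, SE 0.11, adjusted p = 2.75e-06, Eif4e2 by -0.52, SE 0.16, adjusted p = 0.0328 and Eif4e by -0.37, SE 0.12, adjusted p = 0.0394; the last 2 calls were lost in 8 and 9 of 18 settings. Eif4e1b was the single eIF4 gene higher in GKAQ, by 0.33, SE 0.07, adjusted p = 8.83e-05.

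Outside eIF4, Eif1b and Eif6 were lower in GKAQ controls and Eif1 and Eif5 higher. Eif1b, a paralog of the start-codon factor Eif1, had 271, 279 and 223 RPM against 173, 182 and 171 (-0.55, SE 0.10, adjusted p = 1.02e-05). Eif1 itself had 15.1, 30.4 and 36.9 RPM against 36.5, 45.0 and 42.9 (0.69, SE 0.22, adjusted p = 0.043), and GKAO replicate 3 lay inside the GKAQ range. The Eif1 change was 0.30 (adjusted p = 0.804) without GKAO control replicate 1, and its call was lost in 8 of 18 alternative settings, any 1 GKAQ control left out among them. Eif6, which keeps the 60S subunit from joining early, changed by -0.68, and the GTPase activator gene Eif5 by 0.33. Eif3i (-0.86) and Eif2b3 (-0.67) were lower, Eif3j (0.61) and Eif3a (0.35) higher. No elongation locus was called, Eef1a1 and Eef2 having changes of 0.01 and 0.10. The granulosa markers also summed higher in the GKAO controls. Of the 2 detected, Nr5a2 was higher there (125, 120 and 122 RPM against 71.6, 89.6 and 77.4 in GKAQ). Cyp19a1 was not (35.0, 40.3 and 48.6 RPM against 49.0, 45.4 and 47.3). Inha, not detected, was also called lower in GKAQ (log2 change -1.88, adjusted p = 0.0145), from 8, 14 and 11 reads in GKAO and 2, 10 and 2 in GKAQ. Of the 14 oocyte markers 5 were called between control series, Zp2 with a change of -1.04 and Dppa3 with 1.05. The part of these markers in the differences was not tested.

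**Figure D3:**
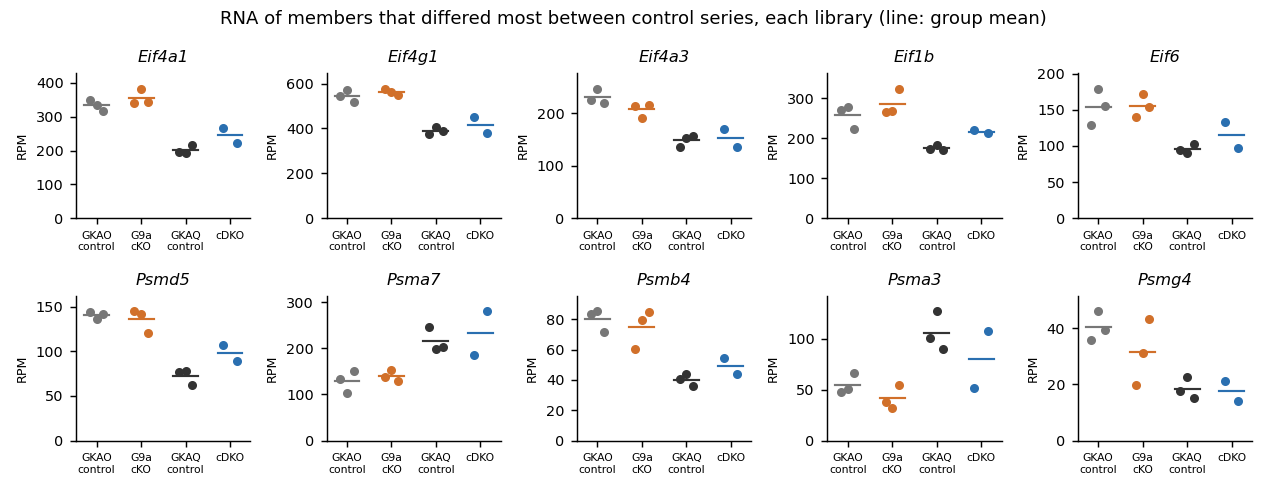
RNA level in RPM (y axis, from 0) of the 5 translation factors (top) and 5 proteasome genes (bottom) with the lowest adjusted p between control series, each point 1 library and each line a group mean. For Eif4a1 and Psmd5 the GKAQ controls lie below all other libraries, and the cDKO libraries lie between the control series.

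The proteasome had 1 of 39 loci called in G9a cKO, with the same background of 1.79% of all loci and 5.22% of detected loci. Psmd12, a subunit of the 19S lid (locus TCONS_00017039, ENSMUSG00000020720, chr11:107479397-107498173, plus strand), had 174, 161 and 180.5 RPM in GKAO controls and 134, 119.6 and 139 in G9a cKO. It was lower, with a log2 change of -0.40, SE 0.12, adjusted p = 0.0477. All G9a cKO libraries were below all other libraries, GKAQ controls (178, 172 and 174) and cDKO (161 and 164) included. The call was lost in 12 of 20 alternative settings, among them leaving out any 1 G9a cKO, GKAO control or GKAQ control library. The adjusted p was 0.128 without the library labelled replicate 2. The proteasome count was 0 there, and also without G9a cKO replicate 1, GKAO control replicate 2 or 3, or any GKAQ control.

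Apart from Psmd12, no proteasome gene passed the test in G9a cKO. Of 32 detected loci 25 had a negative change, where 4412 of all 9091 detected loci did, with a median of -0.20 against 0.01 over all detected loci. The median was -0.20 without the library labelled replicate 2, and -0.24 and -0.23 within the libraries that share a title number, with 25 of 32 negative in each. Against all 6 controls pooled it was -0.12, and no test was made over the list. In the 19S particle 9 of 10 non-ATPase subunits and 4 of 5 ATPases were negative. Psmd4, the ubiquitin receptor Rpn10, had 781, 758 and 876 RPM in GKAO controls and 686, 691 and 729 in G9a cKO (-0.19, SE 0.06, adjusted p = 0.0933), groups that did not overlap although the change was not called. In the 20S core 3 of 4 detected alpha and 4 of 5 detected beta genes were negative. Psma3 had 48.0, 50.3 and 66.2 RPM against 37.6, 31.7 and 54.6 (-0.43, SE 0.17, adjusted p = 0.23), while Psma7 had 134, 104 and 151 against 138, 154 and 129 (0.13, SE 0.12, adjusted p = 0.447). Psmf1, the inhibitor PI31, had 148, 131 and 122 RPM against 101, 101 and 111 (-0.35, SE 0.13, adjusted p = 0.189), while the activator genes Psme3 and Psme4 had changes of 0.0176 and 0.0138.

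Summed over the 39 loci, proteasome RNA made up 4722, 4699 and 5020 RPM in GKAO controls and 4207, 4407 and 4458 RPM in G9a cKO. It was 4865, 4781 and 4815 RPM in GKAQ controls and 4806 and 4888 in cDKO. The G9a cKO libraries were thus below all 8 others. Translation factors summed to 9462 to 9616 RPM in GKAO controls, 9207 to 9655 in G9a cKO, 9097 to 9316 in GKAQ controls and 8808 to 9178 in cDKO, with overlap in both pairs. No test was made on these sums. Psmd4 alone contributed 686 to 876 RPM per library to the proteasome sum.

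**Figure D4:**
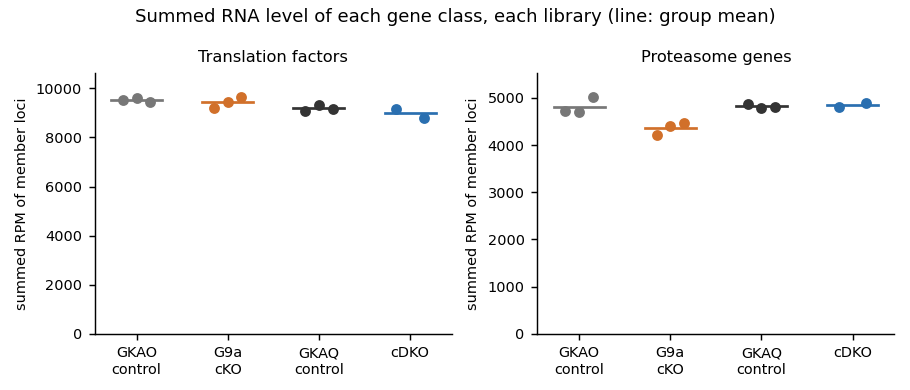
Summed RNA level of the 52 translation loci (left) and 39 proteasome loci (right) in RPM (y axis, from 0), each point 1 library and each line a group mean. The G9a cKO libraries lie at 4207 to 4458 RPM for the proteasome, below the other 8 libraries, while the translation sums overlap between each mutant and its controls.

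In cDKO 1 of 39 proteasome loci was called, against 6.34% of all loci and 15.8% of detected loci. Psmc5, the ATPase Rpt6 (locus ENSMUST00000021049, ENSMUSG00000020708, chr11:106256154-106263120, plus strand), had 235, 227 and 221 RPM in GKAQ controls and 179.9 and 162 in cDKO. It was lower, with a log2 change of -0.41, SE 0.12, adjusted p = 0.0159, without overlap. The GKAO controls had 209.8, 217 and 180.5 RPM, and against all 6 controls pooled the gene was not called (log2 change -0.33, adjusted p = 0.14). The gene lost its call in 8 of 20 alternative settings, among them leaving out cDKO replicate 2 or GKAQ control replicate 1 or 2. The proteasome count was 0 without GKAQ control replicate 1 or 2. Detected members had a median change of 0.08, with 17 positive and 15 negative. Psmb1, a beta ring subunit, had 101, 99.6 and 106 RPM against 167 and 113 (0.43, SE 0.15, adjusted p = 0.068), and Psmd10, the 19S chaperone gankyrin, 39.0, 41.3 and 29.1 against 56.4 and 55.1 (0.63, SE 0.22, adjusted p = 0.057); in both genes the groups did not overlap and the change was not called. Psma7 had 246, 199.6 and 202 RPM against 186 and 281, with cDKO libraries on both sides of the controls (0.09, SE 0.13, adjusted p = 0.669). The interval lay within 1.5-fold for 17 of 32 detected loci in cDKO and for 22 in G9a cKO, and reached beyond it for the others.

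Between the control series 10 of 39 proteasome loci were called, 5 higher and 5 lower in GKAQ, against 3.87% of all loci and 14.8% of detected loci, and 6 without GKAO control replicate 3. In the alpha ring 3 of 4 detected genes were called, all higher in GKAQ. Psma7 had 134, 104 and 151 RPM in GKAO controls and 246, 199.6 and 202 in GKAQ controls (0.75, SE 0.12, adjusted p = 2.82e-08), Psma3 had 48.0, 50.3 and 66.2 against 101, 127 and 90.2 (0.95, SE 0.17, adjusted p = 3.79e-06), and Psma6 changed by 0.53, SE 0.16, adjusted p = 0.0349. The series did not overlap for these genes, but Psma6 lost its call in 9 of 18 alternative settings, any 1 GKAO control left out among them. Among assembly chaperones 3 of 5 detected genes were called, all lower, and the other 2 also had negative changes. Psmd5, a chaperone of the 19S ATPases (locus TCONS_00060171, ENSMUSG00000026869, chr2:34852088-34871509, minus strand), had 145, 136 and 142 RPM against 76.7, 78.3 and 62.1 (-0.97, SE 0.14, adjusted p = 6.94e-10). It was the only member called under each of the 18 alternative settings of this comparison. Psmg4, a chaperone of the 20S core, had 35.6, 46.1 and 39.3 RPM against 17.6, 22.5 and 15.3 (-1.14, SE 0.25, adjusted p = 0.000319), and Psmd9 changed by -0.47, SE 0.15, adjusted p = 0.0374, a call lost in 9 of 18 alternative settings, among them leaving out any 1 GKAQ control.

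Of the other 4 called genes, Psmd14 and Psmc1 were higher and Psmb4 and Psmd7 lower in GKAQ controls. Psmb4, a beta ring subunit (locus TCONS_00067913, ENSMUSG00000005779, chr3:94884093-94887007, minus strand), had 83.6, 85.4 and 71.5 RPM in GKAO controls and 40.9, 43.8 and 36.0 in GKAQ controls (-1.0, SE 0.18, adjusted p = 2.17e-06), and 4 of 5 detected beta genes had negative changes while all 4 detected alpha genes had positive ones. In the 19S lid Psmd14, the deubiquitinase Rpn11 (locus TCONS_00056614, ENSMUSG00000026914, chr2:61711694-61800377, plus strand), rose from 24.0, 29.3 and 35.7 RPM to 59.7, 53.3 and 58.7 (0.96, SE 0.22, adjusted p = 0.000511), while its partner Psmd7 (Rpn8), which forms a dimer with it, fell from 96.0, 98.5 and 99.0 to 76.0, 57.1 and 73.9 (-0.51, SE 0.15, adjusted p = 0.0176). Psmc1 was the ATPase called (0.33, SE 0.11, adjusted p = 0.045), a call lost in 9 of 18 alternative settings, and that of Psmd7 was lost in 7. In cDKO, Psmd14 stood at 31.3 and 63.4 RPM and Psma3 at 51.8 and 108, with replicate 1 near the GKAO controls and replicate 2 near the GKAQ controls for both genes.

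Another locus on the opposite strand overlaps 14 of the translation and 4 of the proteasome loci. Whether the counting used strand is not given in the sources used here, so the values of Eef1b2, Eef2k, Eif2ak1, Eif3i, Eif3j, Eif4ebp2, Eif4g3, Eif6, Psma3, Psma7, Psmd9 and Psme1 among the members named are uncertain in that respect. Reads of genes with close copies elsewhere in the genome, such as Eif3j and Eef1a1, may also have been split between copies.

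Of 24 other translation loci (release factors, poly(A)-binding partners, signalling to eIF4E), 0 were called in G9a cKO and 4 in cDKO, all lower, and 4 between control series. Of all detected loci, 5.22% were called in G9a cKO, 15.8% in cDKO and 14.8% between control series. Denr, a factor of re-initiation, had 68.5, 56.3 and 62.1 RPM in GKAQ controls and 32.5 and 38.5 in cDKO (log2 change -0.81, adjusted p = 0.00676). Mknk1, a kinase of eIF4E, changed by -0.60 (adjusted p = 0.00652), and Paip2, which binds poly(A)-binding protein, by -0.38 (adjusted p = 0.0134). Paip2 had 424, 368 and 365 RPM in GKAQ controls and 245 and 359 in cDKO, where replicate 2 lay just below the controls. Paip2 also differed between control series (0.81, adjusted p = 2.65e-14), with 213, 207 and 237 RPM in GKAO controls. Of 20 other ubiquitin and proteasome loci, 0 were called in G9a cKO, 3 in cDKO and 4 between control series, against the same 5.22%, 15.8% and 14.8%. Nfe2l1, the transcription factor known to drive proteasome genes, had 371, 355 and 352 RPM in GKAQ controls and 276 and 284 in cDKO (log2 change -0.36, adjusted p = 0.0114), and its cDKO effect differed from its G9a cKO effect (-0.50, adjusted p = 0.031). It also differed between control series (0.37, adjusted p = 0.00234), and its cDKO levels lay within the range of the GKAO controls (258, 318 and 260.2 RPM). Ubqln2, a shuttle that brings ubiquitinated proteins to the proteasome, rose in cDKO by a log2 change of 0.68 (adjusted p = 0.0092), and Rps27a, a ubiquitin fusion gene that another locus overlaps on the opposite strand, by 0.70 (adjusted p = 0.0232). For Rps27a the difference between effects was 1.19 (adjusted p = 0.00809) and the one between control series -0.99 (adjusted p = 2.8e-05).

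H3K9me2 was read in 10 kb windows over the members, 189 windows with reads for translation factors and 120 for the proteasome. It was scaled per library, so that a window's RPM is its share of all reads and a higher value does not show more of the mark in total. The control libraries held 7048784 and 19128881 reads against 1109191 to 1881848 in the mutants, and input libraries were not used here. In G9a cKO 4 translation and 2 proteasome windows were called, all higher, where 1.85% of 255057 windows were called (1.75% higher). Leaving out any 1 library leaves 1 sample in a group, and the spread then comes from the other groups. All of these calls were lost in several such fits, among them without G9a cKO replicate 2 and without either cDKO library. Counts from those fits are not given. In cDKO limma called 0 windows over members and 0% of all windows, with an unadjusted p under 0.05 at 16 and 10 member windows.

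Of the 4 translation windows higher in G9a cKO, 2 lay over genes whose RNA was called lower there. The window at the 5′ end of Eef1e1 (chr13:38650001-38660000) had 2.55 and 3.35 RPM of H3K9me2 in controls. It had 11.3 and 11.7 RPM in G9a cKO libraries and 8.12 and 7.97 RPM in cDKO libraries (log2 change in G9a cKO 1.98, adjusted p = 0.0355). A window within Eif2ak1 (chr5:143880001-143890000) had 1.84 and 3.03 RPM in the control libraries, against 10.2 and 10.8 RPM in G9a cKO libraries and 8.71 and 9.56 RPM in cDKO libraries (2.15, adjusted p = 0.0355). In both windows all mutant libraries were above both controls. The other windows lay over Eef2 (3.26 and 3.40 RPM in controls, 10.2 and 9.92 in G9a cKO), Eif4a3 (5.11 and 4.97 against 23.2 and 12.6), Psma1 (3.69 and 4.29 against 13.5 and 12.6) and Psmd1 (3.12 and 3.40 against 12.4 and 9.92), whose RNA was not called in G9a cKO. These values rest on 11 to 43 reads per window in G9a cKO and 13 to 95 in controls, and the relation between the mark and the RNA was not tested. With windows summed to 1 value per locus, 5 of 52 translation and 5 of 39 proteasome loci were called in G9a cKO (12.9% of 15006 loci) and 3 and 1 in cDKO (5.2%). In G9a cKO, Psmd12, Eef1e1 and Eif2ak1, called lower in RNA, were called higher (0.96, 1.66 and 0.79), as were Psma1, Psmd1, Psmd8, Eef2, Eif2d and Eif4a3, whose RNA was not called, while Psma8, with at most 2 reads of RNA in a library, was called lower (-0.70). Eif4e1b, also called lower in RNA in G9a cKO, was not called for H3K9me2. In cDKO the loci called higher were Eef1e1 (1.49), Eif2ak1 (0.87), Eif4g3 (0.76) and Psma1 (1.09), of which Eif4g3 was called lower in RNA there. The other members called lower in RNA in cDKO (Eif4e1b, Eif3j, Eif3g, Eef2k and Psmc5) were not called for H3K9me2.

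The median locus of the translation class had 3.55 and 3.45 RPM per window in controls, 3.50 and 4.04 with G9a cKO, and 4.06 and 4.56 with cDKO. The median proteasome locus had 3.40 and 3.36, 3.59 and 3.61, and 4.06 and 3.99. Over all windows of the genome the median was 3.97 and 4.03 in controls, 3.23 and 3.61 with G9a cKO, and 3.48 and 3.72 with cDKO. In controls the median locus of both classes lay below the median window, and in cDKO above it. The mean over all windows was 3.96 to 3.99 RPM in every library, and against that mean the cDKO medians of the proteasome differed little. All 15006 named loci showed medians of 3.81 and 3.75 in controls and 4.06 and 4.25 in cDKO, so the shift in cDKO was not limited to the members. Both cDKO libraries were above both controls at 26 of 52 translation and 23 of 39 proteasome loci, and below both at 3 and 8, where 41.5% of all named loci were above and 18.5% below. Both G9a cKO libraries were above both controls at 17 and 15 loci and below at 11 and 11, where 31.6% of all named loci were above and 27.9% below.

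**Figure D5:**
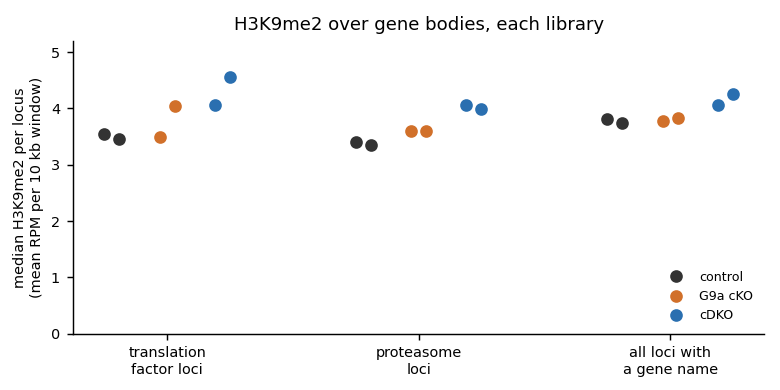
Median H3K9me2 over gene loci (y axis, mean RPM per 10 kb window, from 0) for translation factors, proteasome genes and all named loci, each point 1 library. The cDKO libraries lie above the controls in all 3 sets of loci.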

How the data were processed

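RNA-seq values were deposited by the authors as log2 RPM per oocyte locus, in a column per library, and H3K9me2 as log2 RPM per 10 kb window; a feature without reads stands at 0.9 read, as read from the values. Per the submitters' processing notes, GRCm38, Trim Galore, Bowtie2, HISAT2 2.1.0 and Bismark 0.19.0 were named, and the counting method is not given in the sources used here. For H3K9me2, 4 columns whose names match none of these samples were left out. Groups came from the genotype and the title prefix.

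Log2 values were fitted with limma 3.58.1 (R 4.3.3, data.table version 1.17.8; trended, robust empirical Bayes), 1 mean per group over 11 RNA libraries, with p-values adjusted over all loci; the 3 contrasts between groups and the difference between effects share that fit and its controls. H3K9me2 windows with a read were fitted likewise over 6 libraries. Reads were recovered from the values (100% whole within 0.02 read; 1458868 to 2399680 per RNA library). On simulated counts the RNA test recovered 23 of 50 loci changed 1.5-fold, 38 of 50 changed 2-fold, 49 of 50 changed 3-fold and 50 of 50 changed 4-fold. It also called 13 loci falsely. Those counts are for the G9a cKO comparison over 38540 loci. For H3K9me2 in cDKO, over 254729 windows, 21 of 100 changed 4-fold were recovered.

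Values in every library were given for up to 6 called genes in each direction, class and mutant, and for preset genes; for control series and uncalled genes they were chosen after their values were seen. Members and lists were chosen with earlier results of these data known. Alternatives were scaling, filter, pseudocount, samples, controls, weights, empirical Bayes, block and left-out libraries. Promoter windows are RefSeq's, GRCm38.p6. Python 3.11.15, pandas 2.3.3 and matplotlib 3.10.9 were used. Methylation data were not used here.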

Additional observations from a re-analysis of the deposited data

How the results depend on the processing

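With log2(RPM + 1) the counts of called translation loci were 1 in G9a cKO, 2 in cDKO and 4 between control series, and those of proteasome loci 0, 0 and 2. Without the trended, robust estimate of the spread they were 0, 0 and 0, and 0, 0 and 1. With precision weights translation counts were 3 in G9a cKO and 8 between control series, and proteasome counts 3 and 3; with trimmed-mean scaling added they were 3 and 8, and 2 and 2, with 3 proteasome loci in cDKO. Against all 6 controls pooled, G9a cKO had 8 translation and 4 proteasome calls, cDKO 0 proteasome calls, and the difference between effects 4 in each class. The share of all loci called under each alternative, left-out libraries included, is not given here. Counts under the alternatives are therefore not read as particular to the members. Centred on detected loci, the proteasome had 3 calls in G9a cKO and 5 in cDKO, and the difference 1 translation call. The proteasome count was 0 in G9a cKO when only its own groups were fitted, and 3 in cDKO with loci of at least 1 RPM. With the title number as a replicate block, cDKO had 3 translation and 0 proteasome calls and G9a cKO 3 proteasome calls; the labels do not say what the number marks.

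Median changes in cDKO turned sign for translation factors, from 0.09 to -0.00174 (centred), -0.0439 (pooled controls), -0.0494 (trimmed-mean) and -0.0243 (replicate block), and for the proteasome, from 0.08 to -0.0181, -0.0304 and -0.0461 in the first 3. The median difference between effects was -0.0387 (pooled) and 0.00599 (trimmed-mean) for translation factors and 0.0769 (trimmed-mean) for the proteasome. The proteasome median in G9a cKO stayed between -0.22 and -0.12 under the alternatives run.

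With 1 RNA library left out, called translation loci ranged over 1 to 6 for G9a cKO, 3 to 7 for cDKO, 0 to 5 for the difference and 10 to 14 between control series, and their medians over -0.0461 to 0.0279, 0.0328 to 0.12, 0.0570 to 0.18 and -0.12 to -0.0350. Called proteasome loci ranged over 0 to 2, 0 to 5, 0 to 5 and 6 to 10, and their medians over -0.21 to -0.14, 0.0360 to 0.14, 0.13 to 0.25 and -0.0827 to -0.00801. For H3K9me2, leaving out a library leaves 1 sample in a group, so counts are not given. An RNA fit without 1 cDKO library also leaves 1 sample in that group. With all windows fitted, 12 translation and 4 proteasome windows were called for G9a cKO and 9 and 3 for cDKO. The share of all windows called in that fit was not counted, so these counts are not read as particular to the members. With 1 value per locus there were 5 for the proteasome in G9a cKO, and 3 and 1 in cDKO. Of all loci, 12.9% and 5.2% were called.

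None of the 6 members called in G9a cKO or the 8 in cDKO kept its call in all 20 alternatives. In G9a cKO it was lost in 16 for Eif4g2, 12 for Psmd12, 10 for Eif4e1b, 5 each for Eef1e1 and Eif2ak1 and 2 for Eif3a. In cDKO it was lost in 10 for Eif3j, 9 for Eif4e, 8 for Psmc5, 7 for Eif3g, 6 for Eef2k, 4 for Eif4g3, 3 for Eef1b2 and 1 for Eif4e1b. Of 24 between control series, Psmd5 kept it throughout. Changes that turned sign were all uncalled. Psma7 was -0.25 (pooled) in G9a cKO, with -0.0233 to 0.25 over left-out libraries, and -0.00709 (centred) and -0.0240 (trimmed-mean) in cDKO, with -0.21 to 0.39. In G9a cKO, leaving out libraries gave -0.14 to 0.0244 for Psmc5, -0.13 to 0.0241 for Eef1a1, -0.23 to 0.26 for Eif2s3x, -0.20 to 0.0243 for Eif3g, -0.15 to 0.0294 for Eif3j, -0.12 to 0.00439 for Eif4g3 and -0.0460 to 0.12 for Eif4e, which was -0.0379 with the replicate block. The causes were not tested. Depth limits the test to larger changes in loci with few reads.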
